A study of Homo sapiens with 12 samples.

Results

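The genes described here are 10 immediate early genes, the AP-1 genes FOS, FOSL1, JUN, JUNB, JUND and ATF3, the zinc finger gene EGR1, the small early response genes IER2 and IER3, and MYC. They were chosen by gene name among the 63677 genes of the count table, where 15 rows carried these names. Of these, 5 rows named IER3 held no count in any sample, so each gene was described from a single row. All 10 genes had enough counts to be tested, among 17092 genes that reached 10 counts in 3 or more samples.

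Immediate early genes are switched on within minutes of a growth factor, stress or damage signal by transcription factors that already sit in the cell, such as the serum response factor and CREB, without the need for new protein. FOS proteins pair with JUN proteins to form AP-1, which binds DNA and controls genes of growth, matrix turnover and inflammation, while EGR1 is a zinc finger factor and MYC drives growth and ribosome synthesis. In liver and hepatoma cells these genes are known as part of the response to regeneration signals, oxidative stress and cytotoxic drugs.

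RNA was measured in Huh7, a human hepatocellular carcinoma cell line, in 4 groups of 3 samples. The groups were untreated cells in medium alone, cells given graphene oxide (GO) at 400 µg/mL, cells given GO carrying the ginsenoside Rg3 (GO-Rg3) at 400 µg/mL, and cells given the same carrier loaded with the anthracycline doxorubicin (GO-Rg3-DOX) at 100 µg/mL, all for 6 h. The dose of GO-Rg3-DOX differed from the other doses, so its values are set beside theirs without a test between them, and cells given free doxorubicin were not analysed here. A single cell line was used, and the labels do not say whether the samples of a group came from separate cultures, so p-values measure only the spread between these samples. These are levels in bulk RNA, where fewer cells expressing a gene and less of its RNA per cell cannot be told apart.

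Deposited counts per sample totalled 27802871 to 38877420, and levels are given as CPM, counts scaled to the TMM-normalised library size, where 1 CPM was worth at least 24.3 counts. Every one of 14 hepatocyte and hepatoma markers reached at least 10 CPM in each sample, among them ALB and AFP. Of 12 immune, endothelial and stromal markers, 8 stayed below 1 CPM in all samples and PECAM1 was at 0, while LYZ stood between 111.4 and 159 CPM and the whole list summed to 118.9 to 174 CPM. The summed hepatocyte markers were 24721 to 24861 CPM in untreated cells, 15919 to 19047 after GO, 19369 to 23049 after GO-Rg3 and 33198 to 38544 after GO-Rg3-DOX. By the adjusted p, 11 of the 14 hepatocyte markers and 4 of 6 tested markers of other cell types were higher after GO-Rg3-DOX than in untreated cells, beside 25.5% of all genes. HNF4A was the 1 hepatocyte marker lower there (363 to 180 CPM, log2 fold change -1.02, edgeR, adjusted p = 1.8e-06), beside 30.5% of all genes. After GO, 1 of the 14, HNF4A, was higher and 4 were lower, beside 12.1% and 15.4% of all genes. AFP, the largest part of the sum, fell from 12287 to 5836 CPM after GO. Mitochondrially encoded genes held 5.81% ± 0.489 of counts in untreated cells, 17.0% ± 6.28 after GO, 7.24% ± 0.301 with GO-Rg3 and 15.4% ± 3.52 with GO-Rg3-DOX (SD, n = 3), with 24.1% in the GO sample of replicate 1. The part of these shifts in the results was not tested. With the mitochondrial genes left out before scaling, 17057 genes were tested. The members called were then FOS, JUND and EGR1 after GO and the same 5 higher and 2 lower members after GO-Rg3-DOX as with them. Leaving these genes out changes the scaling alone, so it cannot show what else differs between samples with a high and a low share.

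After GO, 3 of the 10 genes were called higher, FOS, JUND and EGR1, against 3.84% of all genes tested, and 0 were called lower, against 2.62%. A gene was called where edgeR's quasi-likelihood test gave a Benjamini-Hochberg adjusted p below 0.01 and the log2 fold change was above 1 in size. By the adjusted p alone ATF3 also rose and MYC fell, which made 4 higher and 1 lower, beside 12.1% and 15.4% of all genes. At an unadjusted p below 0.05, 1 member was lower, and DESeq2 called 0 lower. The GO and untreated samples did not overlap for 8 of the 10 members, nor for 58.5% of all genes.

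After GO-Rg3-DOX, 5 genes were called higher, EGR1, ATF3, JUNB, FOS and IER3, and 2 were called lower, JUND and MYC. In this comparison 12.6% of all genes tested were called higher and 18.2% lower, so that calls were frequent across the whole table. IER2 fell as well by the adjusted p alone, which made 5 higher and 3 lower, beside 25.5% and 30.5% of all genes. JUN and FOSL1 did not pass the test in this comparison. The groups did not overlap for 8 members, nor for 75.3% of all genes.

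After GO-Rg3, 0 of the 10 genes were called by edgeR's quasi-likelihood test, where 0.0117% of all genes were called higher and 0.0468% lower. DESeq2 called 0 members as well, and at an unadjusted p below 0.05 edgeR gave 1, EGR1, which was lower. The GO-Rg3 samples lay apart from the untreated ones for 3 members and for 25.8% of all genes. Against GO at the matched dose, GO-Rg3 gave lower FOS and EGR1, the 2 members called, where 0.702% of all genes were called higher and 2.07% lower. By the adjusted p alone ATF3 was lower too and MYC higher, which made 1 higher and 3 lower, beside 7.33% and 6.25% of all genes. The comparisons with untreated cells share the untreated samples, and the comparison of GO-Rg3 with GO shares samples with 2 of them, so that they are not independent of each other.

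**Figure D1:**
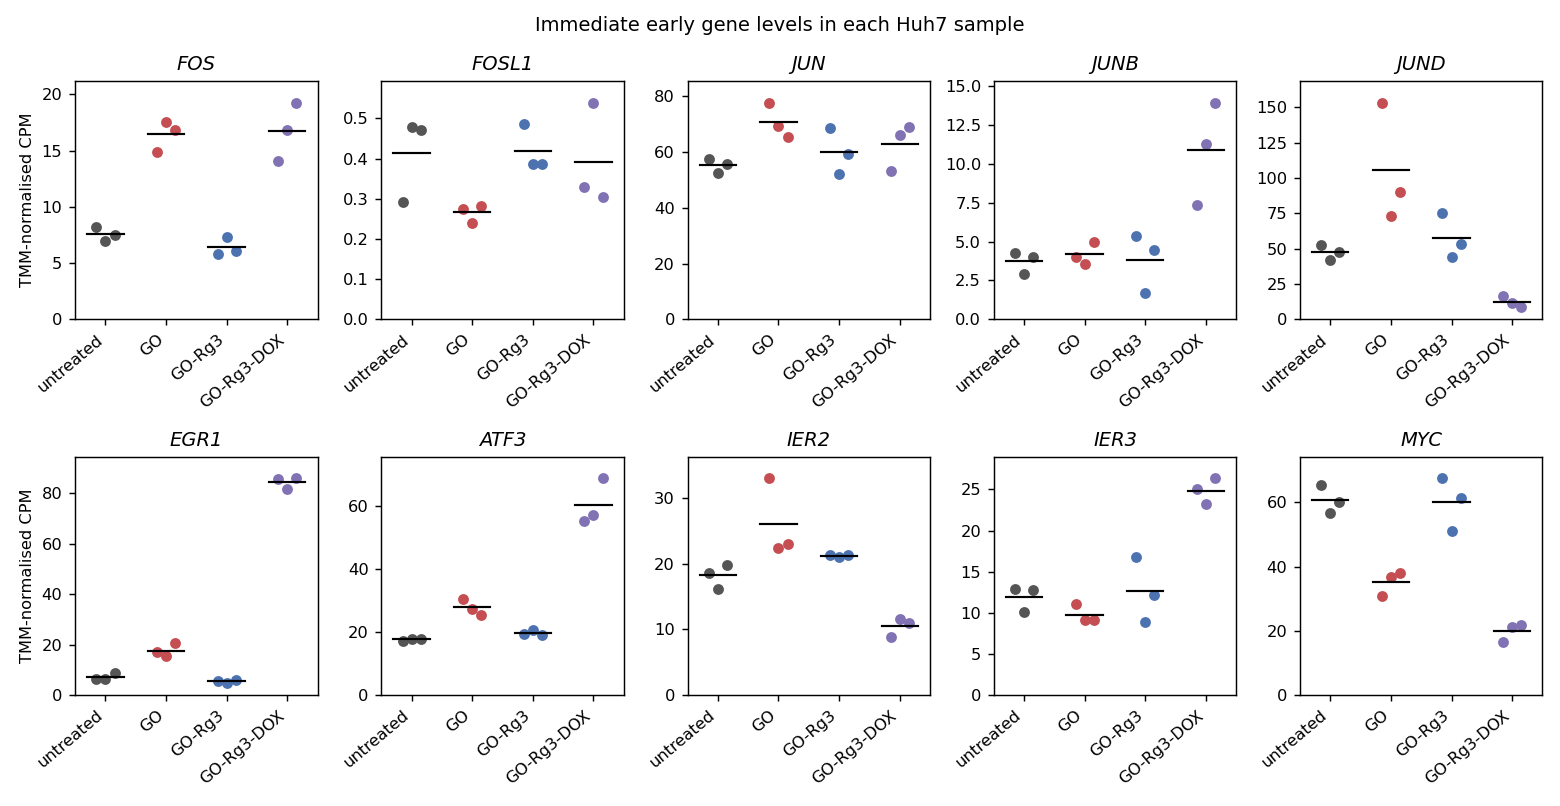
Levels of the 10 immediate early genes in each of the 12 samples, as TMM-normalised CPM on axes that start at 0. Points are samples and bars are group means, and EGR1 in the 3 GO-Rg3-DOX samples (81.8 to 85.9 CPM) sits far above its other 9 samples.

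**Figure D2:**
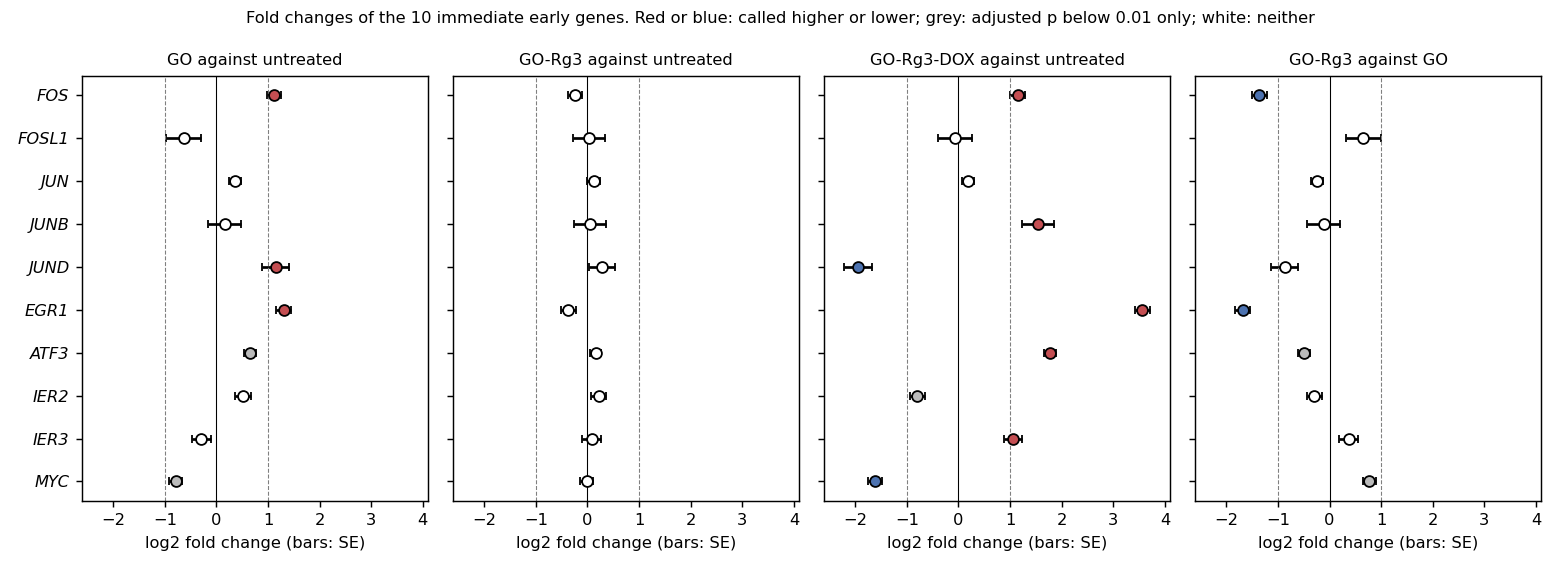
Fitted log2 fold changes of the 10 genes in the 4 comparisons, with bars of 1 SE and dashed lines at a log2 fold change of 1 in either direction. In GO-Rg3 against untreated all points are white, while EGR1 reaches 3.56 and JUND -1.94 in GO-Rg3-DOX against untreated.

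Promoter windows for 7 of the 10 genes were found in RefSeq (GRCh38.p14), each from 250 bases before to 50 bases after a start site. They were searched on both strands for the cAMP response element TGACGTCA, the JUN-type AP-1 site TGACATCA, the AP-1 site TGACTCA, the CArG box of the serum response element, the EGR sites GCGTGGGCG and GCGGGGGCG, the E-box CACGTG and the TATA box TATAAA. EGR1 held 2 CArG boxes, a motif present in 1.29% of 35116 promoters of the same length. JUN and the first of 2 ATF3 windows each held TGACATCA, found in 2.61% of promoters. The second ATF3 window did not hold it, and which start site these cells used was not measured. JUND held TGACGTCA, found in 1.85%, and FOS, JUNB and the second ATF3 window held TATAAA, found in 11.5%. The TATAAA of FOS and JUNB began 33 and 31 bases before the start, but that of the second ATF3 window 230 bases before it. The windows of EGR1, ATF3, JUN, JUND and FOS are shown because these genes differ in the direction and size of their changes. Each line gives the 210 bases before the start site, 5′ to 3′, with the motif found in capitals.
EGR1: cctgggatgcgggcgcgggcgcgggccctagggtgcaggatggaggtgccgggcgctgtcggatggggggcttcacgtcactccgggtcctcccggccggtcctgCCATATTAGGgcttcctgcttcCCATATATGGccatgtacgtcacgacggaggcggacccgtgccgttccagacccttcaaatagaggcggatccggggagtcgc
ATF3: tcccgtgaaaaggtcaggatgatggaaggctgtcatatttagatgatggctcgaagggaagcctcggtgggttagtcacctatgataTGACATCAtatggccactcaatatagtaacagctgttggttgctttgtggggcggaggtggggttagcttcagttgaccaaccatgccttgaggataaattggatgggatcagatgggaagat
JUN: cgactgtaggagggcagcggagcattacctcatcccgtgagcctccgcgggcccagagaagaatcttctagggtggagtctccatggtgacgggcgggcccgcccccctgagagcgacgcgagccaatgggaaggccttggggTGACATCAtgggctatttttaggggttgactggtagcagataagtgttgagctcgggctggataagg
JUND: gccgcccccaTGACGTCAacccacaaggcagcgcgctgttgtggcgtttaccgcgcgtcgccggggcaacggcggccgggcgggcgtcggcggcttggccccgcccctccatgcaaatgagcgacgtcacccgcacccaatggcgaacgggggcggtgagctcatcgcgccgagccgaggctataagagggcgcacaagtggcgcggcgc
FOS: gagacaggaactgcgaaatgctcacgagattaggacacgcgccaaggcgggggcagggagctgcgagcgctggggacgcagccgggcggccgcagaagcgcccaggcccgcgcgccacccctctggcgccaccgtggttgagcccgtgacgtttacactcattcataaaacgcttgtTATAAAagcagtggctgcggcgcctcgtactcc
The EGR1 window lies at chr5:138465269-138465478 on the plus strand, with its CArG boxes starting 105 and 83 bases before the start site. The ATF3 window is that of the first of 2 RefSeq start sites, at chr1:212565197-212565406 on the plus strand, with the site 123 bases before the start. In JUN (chr1:58784048-58784257, minus strand) the same letters begin 67 bases before the start. The JUND element (chr19:18281623-18281832, minus strand) begins 200 bases and the FOS TATA box (chr14:75278618-75278827, plus strand) 33 bases before the start. A match describes these letters in these windows and no binding was measured. Only full matches were counted, so near matches inside a window were missed, such as the letters TGACGTTT in the FOS window. Sites more than 250 bases before a start were outside the search, so a motif not found may also lie further upstream.

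FOS, the founding FOS protein and the partner of JUN in the classical AP-1 dimer, rose after GO and after GO-Rg3-DOX and did not pass the test after GO-Rg3. The gene (ENSG00000170345) lies at chr14:75745529-75748933 on the plus strand of GRCh37 and has 4 exons. It stood at 8.23, 7.001 and 7.47 CPM in untreated cells, 14.9, 17.6 and 16.8 after GO, 5.84, 7.36 and 6.10 after GO-Rg3, and 14.1, 16.9 and 19.3 after GO-Rg3-DOX. All samples of GO and GO-Rg3-DOX lay above all samples of the other 2 groups. The log2 fold change against untreated was 1.12 (SE 0.14, edgeR, adjusted p = 2.9e-05) after GO and 1.14 (SE 0.14, edgeR, adjusted p = 3e-06) after GO-Rg3-DOX. GO-Rg3 was lower than GO at the same dose by a log2 fold change of -1.36 (SE 0.14, edgeR, adjusted p = 1.4e-05), and its difference from untreated was -0.24 (adjusted p = 0.51). FOS kept its call after GO in all 6 fits that left out an untreated or GO sample, with values from 1.07 to 1.18. It was not called higher after GO-Rg3-DOX under library totals alone, where the value was 0.74 (edgeR, adjusted p = 0.0021).

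FOSL1, which encodes the FOS-related protein FRA1, was close to the limit of detection. Only 7 to 20 counts per sample were assigned to it, and its mean lay between 0.266 CPM after GO and 0.419 CPM after GO-Rg3. None of the 4 comparisons passed edgeR's quasi-likelihood test, and the smallest adjusted p was 0.15, for GO against untreated. After GO all 3 samples (0.241 to 0.283 CPM) lay below the untreated ones (0.291 to 0.480 CPM), with a log2 fold change of -0.63 (SE 0.34), and the GC offset gave -0.89 (edgeR, adjusted p = 0.043).

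The other FOS relatives were measured as part of a list of AP-1 and small MAF genes, of which 10 of 11 were tested. FOSB, a FOS protein with short splice forms that lack the activation domain, had 1.53, 1.44 and 1.55 CPM in untreated cells and 199, 181 and 193 CPM after GO-Rg3-DOX. That is a log2 fold change of 6.98 (SE 0.13, edgeR, adjusted p = 2.3e-14), against 1.21 (SE 0.13, edgeR, adjusted p = 9.9e-06) after GO. The span of FOSB overlaps that of ERCC1 on the opposite strand. Shared exon bases were not measured and how strand was used in counting is not stated, so some reads may belong to either gene. FOSL2, encoding FRA2, followed another course, with 33.7 ± 1.39 CPM in untreated cells, 90.0 ± 3.76 after GO, 49.0 ± 4.34 with GO-Rg3 and 21.7 ± 2.89 with GO-Rg3-DOX (SD, n = 3). It rose after GO (log2 fold change 1.42, SE 0.11, edgeR, adjusted p = 4.1e-07) and fell by 0.63 on the log2 scale after GO-Rg3-DOX (SE 0.11, edgeR, adjusted p = 0.00011).

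Across this AP-1 list, 5 genes were higher and 0 lower after GO by the adjusted p, beside 12.1% and 15.4% of all genes, with a median log2 fold change of 0.61 against 0.01 over all genes tested. Beside FOSB and FOSL2, BATF3, a leucine zipper partner of JUN proteins, was called, with a log2 fold change of 1.19 (edgeR, adjusted p = 0.0099). BATF3 was low, at 0.456 ± 0.270 CPM in untreated cells and 1.02 ± 0.184 after GO (SD, n = 3). After GO-Rg3-DOX 2 genes were higher and 4 lower, beside 25.5% and 30.5% of all genes, and the median was -0.19 against -0.06 over all genes. The genes called lower were BATF2 (-1.29), JDP2 (-1.28), a repressor of AP-1 sites, and ATF2 (-1.06), a CREB-like partner of JUN. BATF2 was low too, at a mean of 0.912 CPM in untreated cells and 0.368 after GO-Rg3-DOX.

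The JUN genes, which supply the other side of the AP-1 dimer, did not move together. JUND, the JUN gene that is usually high in resting cells, is a single-exon gene (ENSG00000130522) at chr19:18390504-18392432 on the minus strand of GRCh37. It stood at 52.3, 42.2 and 47.8 CPM in untreated cells, 153, 72.9 and 89.8 after GO, 75.0, 44.4 and 53.1 after GO-Rg3, and 16.5, 11.5 and 8.998 after GO-Rg3-DOX. All GO samples lay above and all GO-Rg3-DOX samples below the untreated samples, and the GO sample of replicate 1 was far above the other two. The log2 fold change was 1.15 after GO (SE 0.26, edgeR, adjusted p = 0.0025) and -1.94 after GO-Rg3-DOX (SE 0.27, edgeR, adjusted p = 1.5e-05). GO-Rg3 and GO overlapped, with a difference of -0.87 that did not pass the test (edgeR, adjusted p = 0.021) but was called without replicate 2 of GO (-1.08, adjusted p = 0.0063) or replicate 1 of GO-Rg3 (-1.11, adjusted p = 0.0065). The rise after GO rested on single samples: without replicate 1 of GO the value was 0.78 (adjusted p = 0.01), without untreated replicate 2 the adjusted p was 0.014, and without untreated replicate 3 it was 0.011. With an offset for GC content it was 0.56 (edgeR, adjusted p = 0.021), while the fall after GO-Rg3-DOX was -2.83 with that offset.

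JUNB, a JUN protein that often restrains JUN, is a single-exon gene (ENSG00000171223) at chr19:12902300-12904129 on the plus strand. It stood at 4.26, 2.91 and 4.00 CPM in untreated cells and at 7.37, 11.3 and 13.9 CPM after GO-Rg3-DOX. All 3 treated samples were above the untreated ones, and the log2 fold change was 1.54 (SE 0.31, edgeR, adjusted p = 4e-04). GO at 4.19 ± 0.697 and GO-Rg3 at 3.83 ± 1.89 CPM (SD, n = 3) overlapped the untreated samples. JUNB shares 259 exon bases with HOOK2 on the opposite strand, which had 6.62 to 17.9 CPM, so part of the counts may belong to either gene. With the GC offset the value after GO-Rg3-DOX was 0.90 (edgeR, adjusted p = 0.0021), below the fold threshold.

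JUN itself, a single-exon gene (ENSG00000177606) at chr1:59242517-59249720 on the minus strand, passed the test in none of the 4 comparisons. Its mean was 55.2 ± 2.53 CPM in untreated cells, 70.7 ± 6.27 after GO, 59.9 ± 8.16 with GO-Rg3 and 62.7 ± 8.32 with GO-Rg3-DOX (SD, n = 3). The 3 GO samples (65.4 to 77.6 CPM) lay above the untreated ones (52.5 to 57.5), with a log2 fold change of 0.36 (SE 0.12) that did not pass edgeR's test at the threshold used (adjusted p = 0.027). Among the alternatives run it passed in 1, with the 6 samples compared fitted alone (adjusted p = 0.0091).

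Per length of exon, the shares of the JUN genes in their sum were set side by side as a description, and the ranges of GO-Rg3 and untreated overlapped for all 3 genes. Their summed level was 41.9 ± 3.69 CPM per kb in untreated cells, 76.4 ± 23.5 after GO, 48.4 ± 11.3 with GO-Rg3 and 29.7 ± 2.09 with GO-Rg3-DOX (SD, n = 3). JUND held 58.7% ± 1.09 of that sum in untreated cells, 70.2% ± 6.47 after GO, 61.2% ± 2.52 with GO-Rg3 and 22.0% ± 8.47 with GO-Rg3-DOX. After GO-Rg3-DOX the largest share was that of JUN, at 58.2% ± 3.79, and JUNB held 19.8% ± 4.78 against 4.83% ± 0.559 in untreated cells. FOS per JUN, as a ratio of levels per kb, was 0.152 to 0.163 in untreated cells, 0.218 to 0.293 after GO, 0.0971 to 0.161 after GO-Rg3 and 0.291 to 0.317 after GO-Rg3-DOX. The size of this ratio depends on the length used for each gene, the union of its annotated exons.

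**Figure D3:**
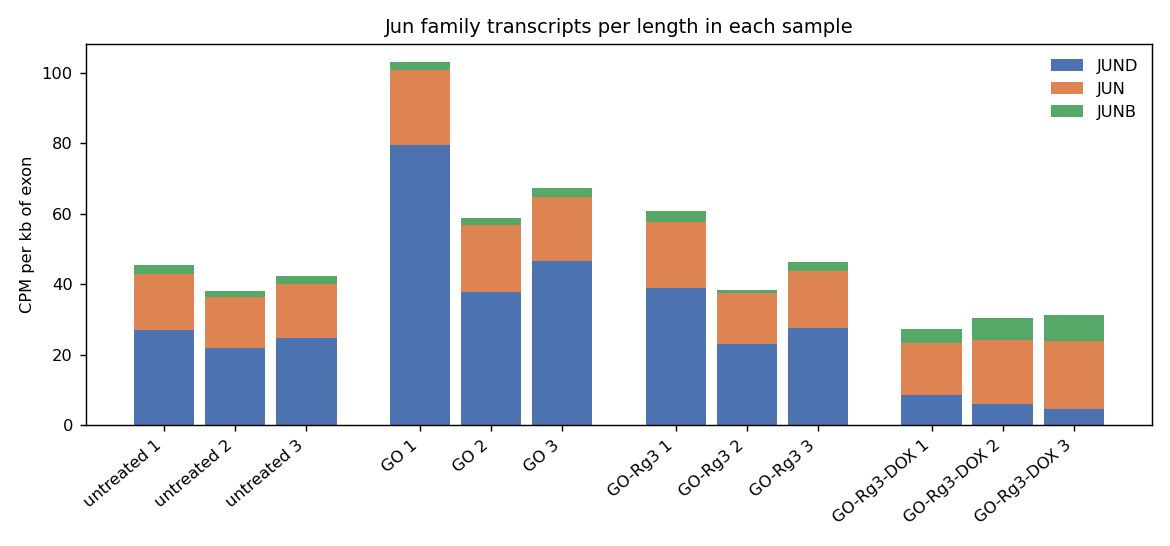
Summed level of JUND, JUN and JUNB in each sample as TMM-normalised CPM per kb of exon, stacked by gene on an axis that starts at 0. JUND makes up most of every bar in the first 3 groups (57.6% to 77.1%) and 14.9% to 31.4% of the bars of GO-Rg3-DOX, where JUN is the largest part.

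ATF3, a stress-induced leucine zipper factor of the CREB group that pairs with JUN proteins, rose both after GO and after GO-Rg3-DOX. The gene (ENSG00000162772) lies at chr1:212738676-212794119 on the plus strand. It stood at 17.3, 17.9 and 17.8 CPM in untreated cells, 30.6, 27.4 and 25.3 after GO, 19.3, 20.7 and 19.0 after GO-Rg3, and 55.2, 57.2 and 68.6 after GO-Rg3-DOX. No treated sample overlapped the untreated range, which spanned less than 1 CPM, and the GO-Rg3 samples were closest to it. The log2 fold change was 0.65 after GO (SE 0.11, edgeR, adjusted p = 0.00029), which is under the fold threshold, and 1.77 after GO-Rg3-DOX (SE 0.11, edgeR, adjusted p = 3.1e-09). GO-Rg3 was lower than GO by a log2 fold change of -0.49 (SE 0.11, edgeR, adjusted p = 0.0041). That last difference no longer passed without replicate 1 of GO (-0.42, adjusted p = 0.011) or without replicate 3 of GO-Rg3 (-0.47, adjusted p = 0.024). It also did not pass under library totals alone (-0.34, edgeR, adjusted p = 0.074) or with the 6 samples compared fitted alone (-0.50, edgeR, adjusted p = 0.033).

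EGR1, an immediate early zinc finger factor that binds GC-rich sites, made the largest change of the 10 genes. The gene (ENSG00000120738) lies at chr5:137801168-137804992 on the plus strand and has 2 exons, and its promoter window is the one with the CArG boxes above. It stood at 6.48, 6.23 and 8.69 CPM in untreated cells, 16.9, 15.5 and 20.6 after GO, 5.62, 4.95 and 5.94 after GO-Rg3, and 85.8, 81.8 and 85.9 after GO-Rg3-DOX. The groups did not overlap at any point, with GO-Rg3 lowest and GO-Rg3-DOX highest. The log2 fold change was 3.56 after GO-Rg3-DOX (SE 0.15, edgeR, adjusted p = 9.3e-11), or 11.8-fold, and 1.30 after GO (SE 0.14, edgeR, adjusted p = 1e-05). The difference of GO-Rg3 from untreated was -0.38 (SE 0.15) and did not pass (edgeR, adjusted p = 0.25). At the matched dose GO-Rg3 was lower than GO by a log2 fold change of -1.68 (SE 0.14, edgeR, adjusted p = 1.9e-06). EGR1 kept its calls after GO, after GO-Rg3-DOX and in GO-Rg3 against GO in every fit that left out a sample.

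Of the other EGR genes and the NAB corepressors that bind EGR proteins, 4 of 5 were tested. EGR2, at 2 to 3 counts per untreated sample, had 64 to 140 counts in each sample after GO-Rg3-DOX, a ratio of 66.9 per library with a 95% counting interval of 32.1 to 168. EGR3 had 0, 0 and 1 counts in untreated cells and 58, 52 and 85 after GO-Rg3-DOX, a ratio of 278 with an interval of 49.3 to 11024. These intervals are exact binomial ones and cover counting error only, and both genes passed edgeR's test (adjusted p = 7e-09 for EGR2 and 2e-07 for EGR3). NAB2, itself a target of EGR1 that feeds back on it, went the other way, from 16.3 ± 1.17 CPM in untreated cells to 3.06 ± 0.278 after GO-Rg3-DOX (SD, n = 3), a log2 fold change of -2.41 (edgeR, adjusted p = 9.5e-10). It overlaps STAT6 on the opposite strand. After GO, 0 of these 4 genes passed edgeR's test, 0 had an unadjusted p below 0.05, and DESeq2 also put 0 past it.

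IER2 and IER3 encode small proteins of early growth and stress responses, and they moved in opposite directions after GO-Rg3-DOX. IER3, a regulator of cell survival (ENSG00000137331, chr6:30710976-30712325, minus strand), stood at 12.9, 10.1 and 12.8 CPM in untreated cells and at 25.1, 23.2 and 26.3 CPM after GO-Rg3-DOX. Its log2 fold change was 1.05 (SE 0.18, edgeR, adjusted p = 1e-04), with no overlap between the groups. IER2, a nuclear regulator (ENSG00000160888, chr19:13261225-13265725, plus strand), stood at 18.6, 16.2 and 19.9 CPM in untreated cells, 33.02, 22.4 and 23.0 after GO, 21.4, 21.1 and 21.3 after GO-Rg3, and 8.82, 11.6 and 11.1 after GO-Rg3-DOX. All GO-Rg3-DOX samples were below and all samples of GO and GO-Rg3 above the untreated range. It fell by 0.79 on the log2 scale after GO-Rg3-DOX (SE 0.15, edgeR, adjusted p = 0.00031), and its difference after GO, 0.51 (SE 0.15), did not pass (edgeR, adjusted p = 0.012).

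Both genes sit near thresholds that the processing can shift. IER3 was not called with the GC offset (0.72, edgeR, adjusted p = 5.3e-05), under library totals alone (0.64, edgeR, adjusted p = 0.0059), with no filter on low counts (0.97) or without untreated replicate 2 (0.95). IER2 after GO passed in 7 of 22 alternatives, with adjusted p from 0.0025 to 0.0097 in these, among them DESeq2, the replicate block (0.51, edgeR, adjusted p = 0.0085) and the fit without replicate 2 of GO (0.62, edgeR, adjusted p = 0.0067). With the GC offset it was 0.16 (edgeR, adjusted p = 0.38). IER3 after GO, at 11.1, 9.12 and 9.11 CPM, overlapped the untreated samples, with a log2 fold change of -0.30 (edgeR, adjusted p = 0.21). With the GC offset that value was -0.56 (edgeR, adjusted p = 0.0017), and GO-Rg3 against GO, at 0.37 without it (adjusted p = 0.14), was 0.59 (edgeR, adjusted p = 0.0021). Genes on the opposite strand of IER3 held at most 0.108 CPM.

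MYC, the growth factor-induced regulator of ribosome synthesis on chromosome 8 (ENSG00000136997, 3 exons), was the member that fell after both GO and GO-Rg3-DOX. It stood at 65.4, 56.8 and 60.1 CPM in untreated cells, 30.7, 36.8 and 37.9 after GO, 67.5, 51.1 and 61.5 after GO-Rg3, and 16.4, 21.2 and 21.8 after GO-Rg3-DOX. All GO and all GO-Rg3-DOX samples lay below the untreated range, and the GO-Rg3 samples lay across it. MYC fell by 0.79 on the log2 scale after GO (SE 0.13, edgeR, adjusted p = 0.00029) and by 1.62 after GO-Rg3-DOX (SE 0.14, edgeR, adjusted p = 7e-08). GO-Rg3 stood above GO by 0.77 (SE 0.13, edgeR, adjusted p = 0.00083), a difference with an adjusted p of 0.011 when the 6 samples were fitted alone. The fall after GO-Rg3-DOX stayed called in all 6 fits without a sample of these groups, with values from -1.69 to -1.50.

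MYC works as a dimer with MAX, and MXD, MNT and MGA proteins compete for MAX. All 12 genes of this network that were found in the table were tested. MYCN, the neuroblastoma paralogue of MYC, had 10.6 ± 0.720 CPM in untreated cells, 3.64 ± 0.508 after GO, 9.08 ± 0.670 with GO-Rg3 and 1.32 ± 0.146 with GO-Rg3-DOX (SD, n = 3). It fell by 1.54 on the log2 scale after GO (edgeR, adjusted p = 1.3e-06) and by 3.00 after GO-Rg3-DOX (edgeR, adjusted p = 5.5e-10), and stood above GO in GO-Rg3 by 1.31 (edgeR, adjusted p = 1.3e-05). MYCL, the third paralogue, rose from 1.69 to 11.6 CPM after GO-Rg3-DOX, a log2 fold change of 2.78 (SE 0.15, edgeR, adjusted p = 9.5e-10). MAX fell from 17.1 to 5.52 CPM there (log2 fold change -1.63, edgeR, adjusted p = 5e-08) and MGA, a MAX-binding repressor scaffold, from 61.2 to 14.5 CPM (-2.08, edgeR, adjusted p = 4.5e-09). After GO the repressor gene MNT was called higher, from 15.8 to 32.2 CPM (1.03, edgeR, adjusted p = 0.00011).

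In all, 6 of the 12 network genes were higher and 2 lower after GO by the adjusted p, beside 12.1% and 15.4% of all genes, with a median log2 fold change of 0.52 against 0.01 over all genes. After GO-Rg3-DOX 4 were higher and 4 lower, shares near the 25.5% and 30.5% of all genes, and the median was 0.14 against -0.06 over all genes, but -0.26 under library totals alone and -0.17 with the GC offset. The span of MAX overlaps FNTB and that of MYCN overlaps MYCNOS on the opposite strand. Shared exon bases were not measured, so some reads may belong to either gene of a pair.

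A list of 28 genes of growth and ribosome synthesis that MYC is known to induce was tested in full. After GO 1 was higher and 10 lower by the adjusted p, beside 12.1% and 15.4% of all genes, and the median log2 fold change was -0.14 against 0.01 over all genes. NPM1, the nucleolar chaperone nucleophosmin, was the single gene called, falling from 1661 to 819 CPM (-1.02, SE 0.13, edgeR, adjusted p = 4.1e-05). After GO-Rg3-DOX 9 were higher and 9 lower, shares near the 25.5% and 30.5% of all genes, with a median of -0.04 against -0.06. In this comparison 1 gene was called higher and 5 lower. The gene called higher was SRM (128 to 306 CPM, log2 fold change 1.26, edgeR, adjusted p = 6.3e-05). The largest falls were those of the nucleolar genes GNL3 (112 to 20.5 CPM, log2 fold change -2.45), NOP16 (31.6 to 5.90 CPM, -2.42) and WDR43 (96.1 to 18.7 CPM, -2.36) and of POLR1B (61.2 to 12.5 CPM, -2.29), a subunit of RNA polymerase I. GNL3 and NOP16 overlap other tested genes on the opposite strand.

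Known AP-1 targets were followed in another list, with 12 of 16 genes tested. LIF, a cytokine of the interleukin 6 family, rose from 19.2 ± 0.842 to 110 ± 9.20 CPM after GO (log2 fold change 2.52, SE 0.14, edgeR, adjusted p = 2e-08). At the matched dose GO-Rg3 was lower than GO, at 26.7 ± 5.21 CPM (-2.05, SE 0.14, edgeR, adjusted p = 2.5e-07), and GO-Rg3-DOX stood at 14.9 ± 2.04 CPM (SD, n = 3). PLAU, the urokinase gene, fell from 18.7 to 7.42 CPM after GO (-1.33, edgeR, adjusted p = 2.7e-06). After GO-Rg3-DOX the genes called were low ones, IL6, with 3 counts over the untreated samples and 75 over the treated ones, a ratio of 35.6 with an interval of 11.7 to 177, and the protease inhibitor TIMP1, with 12 and 58 counts. LIF overlaps LIF-AS2 and IL6 overlaps STEAP1B on the opposite strand. By the adjusted p, 2 targets were higher and 2 lower after GO, shares near the 12.1% and 15.4% of all genes. After GO-Rg3-DOX 3 were higher, a share near the 25.5% of all genes, and 0 were lower, beside 30.5%, while edgeR's unadjusted p was below 0.05 for 2 lower targets. The medians of this list, 0.89 after GO and 0.44 after GO-Rg3-DOX, moved with the filter, and with at least 10 counts in every sample they were -0.21 and 0.22.

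Other immediate early genes moved in both directions. Of 32 tested, 10 were higher and 3 lower after GO, beside 12.1% and 15.4% of all genes, with a median log2 fold change of 0.22 against 0.01 over all genes. BTG1 (39.1 to 80.4 CPM, 1.04) and CEBPD (20.4 to 41.7 CPM, 1.03) were called higher, the first an antiproliferative gene and the second a leucine zipper factor of the acute phase. CYR61, a matrix protein gene (108 to 32.4 CPM, -1.74), and SGK1, a serum-induced kinase (175 to 78.4 CPM, -1.16), were called lower. Both were higher in GO-Rg3 than in GO, by 1.801 for CYR61 (edgeR, adjusted p = 6.2e-07) and 1.24 for SGK1 (edgeR, adjusted p = 2.2e-05).

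After GO-Rg3-DOX 8 of these 32 genes were higher and 19 lower, and the median was -0.57 against -0.06 over all genes. NR4A3, an orphan nuclear receptor gene, went from 23 to 156 counts over 3 samples (log2 fold change 3.25, edgeR, adjusted p = 7e-07), and HBEGF, a ligand of the EGF receptor, from 2.28 to 17.7 CPM (2.96, edgeR, adjusted p = 2.5e-10). ZFP36L2, which promotes decay of AU-rich mRNAs, fell from 134 to 17.3 CPM (-2.95, edgeR, adjusted p = 8e-11), and NFIL3, a leucine zipper repressor, from 56.8 to 10.5 CPM (-2.43, edgeR, adjusted p = 2.6e-10). Over all genes tested 25.5% passed as higher and 30.5% as lower.

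**Figure D4:**
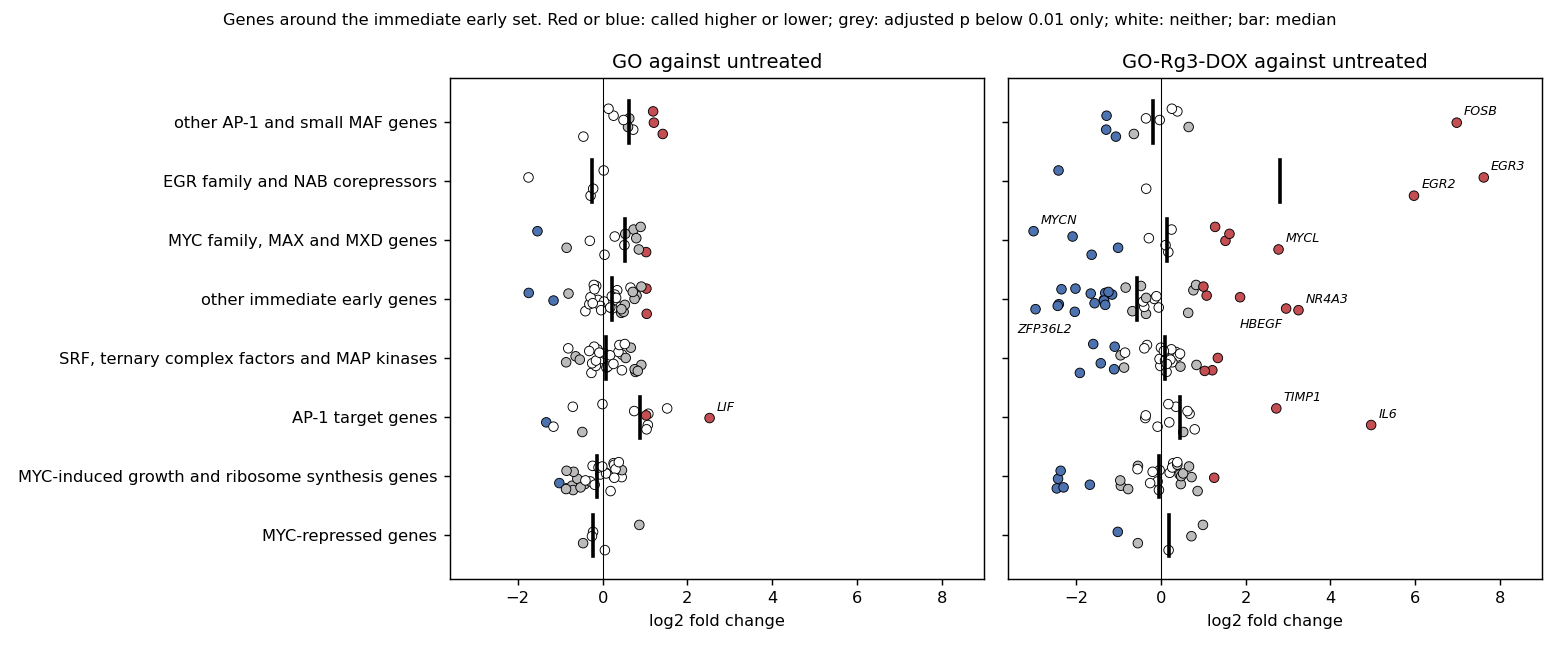
Fitted log2 fold changes of the genes of 8 lists after GO and after GO-Rg3-DOX, against untreated, 1 point per gene, with the list median as a bar and names for changes above 2.5 in size. FOSB (6.98) stands apart from its list after GO-Rg3-DOX, EGR2 and EGR3 had at most 3 counts per untreated sample so their fitted values depend on the prior count, and LIF (2.52) is the single named gene after GO.

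In GO-Rg3 against untreated, edgeR put 0 of the 132 genes in these lists past the test, where 0.0585% of all genes passed as higher and 0.105% as lower. DESeq2 put 5 of the 132 past the test at its adjusted p below 0.01, so the 2 tools differed here. At an unadjusted p below 0.05 in edgeR, 14 were higher and 8 lower. The shares of all genes at these 2 settings are not given here. Against GO, 18 of them were higher and 16 lower in GO-Rg3 by the adjusted p, beside 7.33% and 6.25% of all genes.

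Compared per kb of exon, JUND was the highest of the 10 genes in untreated cells (24.6 ± 2.61 CPM per kb), followed by JUN (15.2 ± 0.699), MYC (9.95 ± 0.705) and IER3 (8.86 ± 1.17). The ranges of MYC and IER3 overlapped there, as did those of FOS, EGR1 and JUNB at 2.04 to 2.37 CPM per kb, and FOSL1 was lowest at 0.219 ± 0.0564. JUND stayed highest after GO (54.6 ± 21.9) and after GO-Rg3 (29.8 ± 8.17), and JUN stayed next in both. After GO-Rg3-DOX EGR1 was highest by this measure (26.9 ± 0.744 CPM per kb), with no overlap with the next gene, IER3 (18.4 ± 1.18). IER3 overlapped JUN (17.3 ± 2.30), and JUN overlapped ATF3 (15.1 ± 1.82). JUND (6.40 ± 1.98) then overlapped JUNB and FOS, and MYC (3.24 ± 0.482) stood next to last (SD, n = 3). Length here was the union of all annotated exons, and the order depends on that choice. It was 3998 bases for ATF3, 6109 for MYC and 3186 for FOS, against 2103, 3721 and 2104 in the longest transcript. For EGR1 both were 3137 bases. The full order by transcript length was not computed. By the longest transcript the mean of ATF3 after GO-Rg3-DOX, 60.3 CPM over 2103 bases, stands above that of EGR1, 84.5 CPM over 3137 bases.

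The fold changes of all genes went with the GC content of their transcripts. Across 16622 genes, which are not independent replicates, Spearman's rho between GC content and log2 fold change was 0.433 after GO, 0.203 after GO-Rg3, 0.362 after GO-Rg3-DOX and -0.433 for GO-Rg3 against GO. The members ranged from 46.7% GC in ATF3 and 48.8% in MYC to 64.9% in JUNB and 69.9% in JUND, against a median of 47.8%, and JUND was at percentile 99.7 of all genes. With an offset for GC content in the same model, FOS (1.01), EGR1 (1.13), ATF3 (0.72) and MYC (-0.79) kept their side of the test after GO. JUND lost the test (0.56, edgeR, adjusted p = 0.021) and IER3 gained it (-0.56, edgeR, adjusted p = 0.0017). After GO-Rg3-DOX the offset left EGR1 (3.38), ATF3 (1.96) and FOS (1.08) called higher and JUND (-2.83) and MYC (-1.51) called lower. JUNB (0.90) and IER3 (0.72) lost their calls by the fold threshold. IER2 (-1.28), not called without the offset, was called lower with it. What links GC content to the treatments was not tested.

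**Figure D5:**
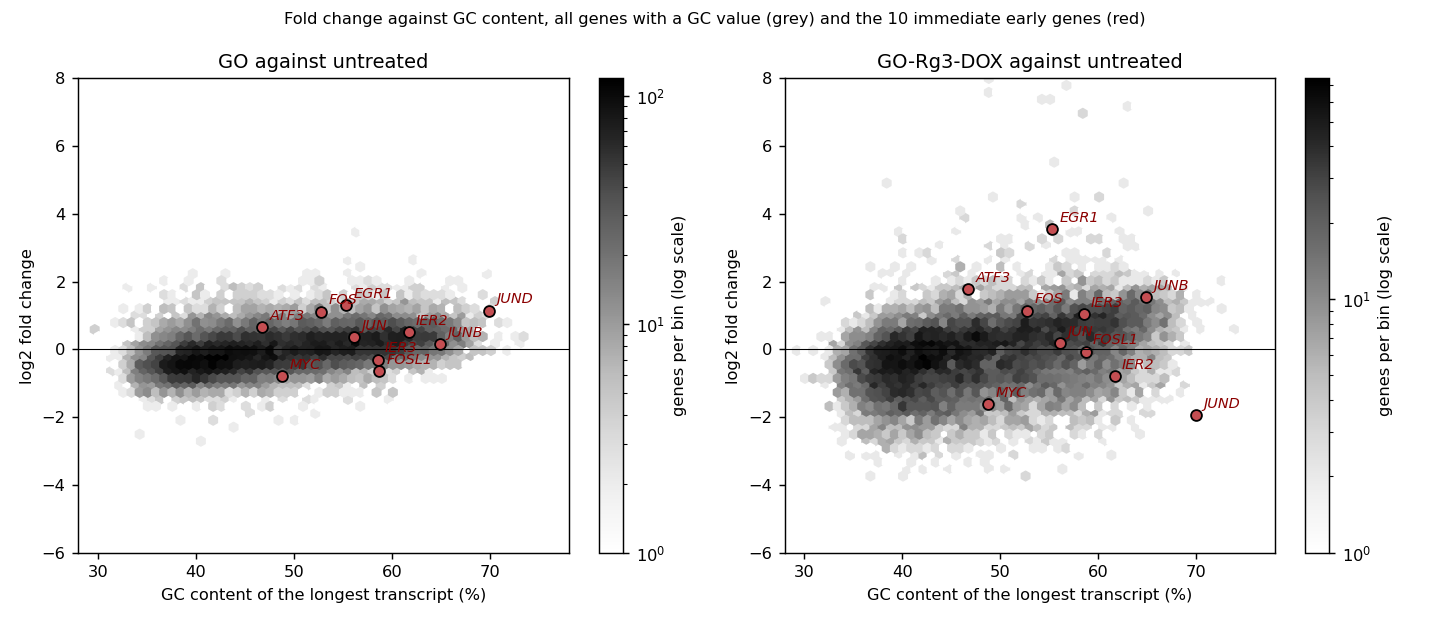
Log2 fold change against GC content of the longest transcript (%), after GO and after GO-Rg3-DOX, with tested genes that have a GC value as grey hexagons (darker for more genes, log scale) and the 10 members in red. JUND lies at the right edge (69.9% GC), at 1.15 after GO and -1.94 after GO-Rg3-DOX.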

How the data were processed

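RNA was sequenced from 12 Huh7 samples, 3 per group, with a stranded mRNA kit. The authors deposited raw whole-number counts per gene, made with featureCounts on GRCh37 per the labels. The strand setting and annotation release are not given in the sources used here. Gene positions came from GENCODE lifted to GRCh37 and promoter sequences from RefSeq (GRCh38.p14). The 10 genes and all gene lists were chosen with earlier results of these data known. Named genes were the 10 members, at most the 4 largest called changes per list and comparison, and the 3 genes most like FOS, JUN, EGR1 and MYC. SRM was named in addition, as the single called rise of its list.

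Genes that reached 10 counts in 3 or more samples were tested in R 4.3.3 with edgeR 4.0.16 (TMM scaling, quasi-likelihood test, all 12 samples in a single model, Benjamini-Hochberg adjustment over 17092 genes). Calls needed an adjusted p below 0.01 and a log2 fold change above 1 in size. DESeq2 1.42.0, other scalings and filters, a GC content offset (loess, span 0.5), a replicate block and leaving out each sample were the alternatives. On counts simulated for GO against untreated over 17092 genes, 178 of 200 genes changed by a log2 fold of 2 were recovered with 0 false calls. The simulation had no GC trend and no shift in mitochondrial share, so it does not measure false calls in data that have them. A called gene of the AP-1 target list is not reported here by name. Drawings used matplotlib 3.10.9.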

Additional observations from a re-analysis of the deposited data

How the results depend on the processing

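Of 876 alternative results for single members, 813 kept direction and side of the threshold, 10 lost the test, 16 gained it and 37 turned direction, none of the last with an adjusted p below 0.01 in either fit. Under library totals alone the all-gene median moved to -0.11 after GO, -0.47 after GO-Rg3-DOX and 0.12 for GO-Rg3 against GO. This scaling gave 695 genes lower after GO, 16 lower after GO-Rg3, 1028 higher and 4940 lower after GO-Rg3-DOX with 3 members higher (JUNB, EGR1, ATF3), and 220 higher and 231 lower for GO-Rg3 against GO. In the order higher then lower, the reported counts were 657 and 448 after GO, 2 and 8 after GO-Rg3, 2159 and 3103 for GO-Rg3-DOX, and 120 and 353 for GO-Rg3 against GO. The GC offset gave 265 genes lower after GO, 4 and 17 after GO-Rg3, and 3 members higher for GO-Rg3-DOX (FOS, EGR1, ATF3).

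With no fold threshold the counts were 2074 and 2639 after GO with MYC as the 1 member lower, 10 and 18 after GO-Rg3, 4350 and 5214 for GO-Rg3-DOX, and 1253 and 1068 for GO-Rg3 against GO with MYC as the 1 member higher. The small counts after GO-Rg3 were 4 higher under RLE scaling, 4 without mitochondrially encoded genes, 11 and 52 with no filter, 5 and 32 in DESeq2, 4 and 16 in the 6 samples alone, and 7 and 42 at an adjusted p of 0.05. GO-Rg3 against GO gave 76 and 204 in the 6 samples alone and 533 lower at an adjusted p of 0.05.

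Same-numbered samples were not known to share a culture. Their deviations correlated by -0.0239 to 0.253, with a mean of 0.0914 against -0.0451 for samples of other numbers. Of 12 samples, 10 correlated best with their own number. The main fit used no block, as the study names none, and whether same-numbered samples share an effect was not tested. The replicate block gave 21 genes lower after GO-Rg3 and let JUND pass in GO-Rg3 against GO (-0.84, edgeR, adjusted p = 0.00034) and IER2 after GO (0.51, edgeR, adjusted p = 0.0085). The block with the GC offset gave 272 genes lower after GO, 1 member higher there (EGR1), 5 and 27 genes after GO-Rg3, and 3 members higher for GO-Rg3-DOX.

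Leaving out 1 sample gave 521 to 735 higher and 410 to 535 lower genes after GO, with 2 to 3 and 0 members, and 0 to 5 and 1 to 38 after GO-Rg3 (38 without GO replicate 1), with 0 members. It gave 1954 to 2184 and 2903 to 3125 after GO-Rg3-DOX, with 4 to 5 and 2 members, and 77 to 198 and 257 to 392 for GO-Rg3 against GO, with 0 and 2 to 3 members.

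No value that turned direction was past the test. JUNB was -0.25 after GO with the GC offset, with or without the block. For GO-Rg3 against untreated, the offset gave -0.014 for FOSL1, -0.11 for JUNB with or without the block, and 0.035 for MYC (0.033 with the block). MYC was there also 0.016 under RLE scaling and in DESeq2, 0.0095 under library totals, 0.0080 without mitochondrially encoded genes and 0.057 in the 6 samples alone. Leaving out 1 sample gave -0.17 to 0.15 for FOSL1, -0.26 to 0.38 for JUNB, -0.18 to 0.27 for IER3 and -0.11 to 0.085 for MYC. For GO-Rg3-DOX, FOSL1 was 0.0043 under RLE scaling, 0.0016 in DESeq2 and -0.38 to 0.090 with 1 sample left out, and JUN was -0.22 under library totals, -0.032 with the offset and -0.033 with the block added. For GO-Rg3 against GO, JUNB was 0.024 under library totals, 0.14 with the offset with or without the block, and -0.42 to 0.22 with 1 sample left out, and IER2 was 0.021 with the offset and 0.011 with the block added. The cause was not tested. Depth limits FOSL1, EGR2, EGR3, IL6, TIMP1 and NR4A3, among others, at 20 counts or fewer per untreated sample.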

Other observations

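The kinases and factors that act upstream of immediate early genes were tested as a list of 29 genes (SRF, ternary complex factors, MAP kinases and their relatives). After GO, 6 were higher and 3 lower by edgeR's adjusted p, beside 12.1% and 15.4% of all genes, with a median log2 fold change of 0.09 against 0.01 over all genes. After GO-Rg3-DOX 5 were higher and 7 lower, beside 25.5% and 30.5% of all genes. CREB1, the factor that binds cAMP response elements, fell from 55.1 to 14.7 CPM (log2 fold change -1.91), MKL1, an actin-regulated SRF coactivator, from 29.9 to 9.93 CPM (-1.59), and MAP2K4, a kinase of the JNK pathway, from 48.0 to 18.0 CPM (-1.42). MAPK3, which encodes ERK1, rose from 36.03 to 91.6 CPM (1.35, edgeR, adjusted p = 8.7e-07). CREB1 overlaps METTL21A and MKL1 overlaps SGSM3 on the opposite strand.

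Of 5 genes that MYC is known to repress, 1 was higher and 1 lower after GO, beside 12.1% and 15.4% of all genes, and 2 were higher and 2 lower after GO-Rg3-DOX, beside 25.5% and 30.5%. The gene called was CDKN1B, a cyclin-dependent kinase inhibitor, which fell from 43.4 to 21.5 CPM after GO-Rg3-DOX (-1.01, edgeR, adjusted p = 1.8e-05).

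Over the 12 samples, which share group structure, the genes whose log2 CPM followed FOS most closely were HECA (Pearson's r 0.979), GRAMD1C (0.960) and IRF1 (0.959). For JUN they were ARFGAP1 (0.946), GIGYF1 (0.931) and UNC93A (0.931). EGR1 was followed by LBP (0.990), C9orf24 (0.988) and NCSTN (0.985), and MYC by MYCN (0.991), TBX4 (0.986) and TAF5L (0.984). These are descriptions of the likeness of patterns over 4 groups and were given no test.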
